A study of Mus musculus with 6 samples.

Results

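The genes described here encode the machinery that fuses vesicles and granules with membranes: the vesicle-associated membrane proteins (Vamp), syntaxins (Stx), syntaxin-binding proteins (Stxbp), SNAP proteins (Snap), synaptotagmins (Syt), synaptotagmin-like proteins (Sytl) and Munc13 proteins (Unc13). They were chosen by name alone, as the protein-coding genes whose symbol is 1 of these prefixes followed by a number or a letter from a to d. Of the 29097 genes in the table, 59 symbols matched, and the 57 with a protein-coding transcript type were kept. The rule also took 5 *Snapc* genes, which encode subunits of the complex that activates small nuclear RNA genes and which share only the prefix, so 52 members belong to vesicle fusion. The comparison asked how the transcripts of this machinery differ in circulating neutrophils during periodontitis.

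Male C57BL/6 mice aged 8 weeks carried silk ligatures on their second molars for 14 d (ligature-induced periodontitis, LIP), and control mice (Ctrl) carried none. No other allele or agent differed between the groups. Peripheral blood (PB) neutrophils were sorted as CD45+CD11b+Ly6G+ cells after lysis of red cells, and 3 Smart-seq2 libraries were made per group, each from a pool of 5 mice. A pool gives 1 value, so the spread between mice cannot be seen, and the values are those of blood cells at 1 time point.

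Membrane fusion is driven by SNARE proteins. An R-SNARE on the vesicle, usually a Vamp protein, zips together with a Qa-SNARE (a syntaxin) and the Qb and Qc helices on the target membrane, which at the plasma membrane are both supplied by a single SNAP protein. Sec1/Munc18 proteins such as the Stxbp family hold and guide syntaxins, Munc13 proteins prime the vesicle, and synaptotagmins and synaptotagmin-like proteins couple the vesicle to calcium or to the small GTPase Rab27. Neutrophils use this machinery to release primary, secondary and tertiary granules and secretory vesicles, which carry proteases, antimicrobial proteins and receptors to the cell surface or to the phagosome. *Stx11*, *Stxbp2* and *Unc13d* are further known as genes of inherited hemophagocytic lymphohistiocytosis, in which cytotoxic lymphocytes fail to degranulate.

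Total counts per library lay between 52186555 and 57262379. All 20 neutrophil markers were present and higher in LIP, with a summed FPKM of 16841 to 20215 in Ctrl and 56923 to 61959 in LIP. Markers of cells that the gate should leave out were also present, and no marker list was at 0: the 12 B cell markers summed to 3473 to 3766 FPKM in Ctrl and 509 to 574 in LIP, and the 14 T cell markers to 256 to 273 and 37.8 to 49.7. All of these B and T cell markers were lower in LIP, as were the 8 erythroid markers tested. The 11 erythroid markers with values, tested or not, took 14.7 to 15.2% of the counts in Ctrl and 1.56 to 1.62% in LIP. All 12 platelet and all 8 monocyte markers were higher in LIP, with summed FPKM ratios of 1.92 and 1.71. Of 7 NK cell markers 3 were higher, with a summed ratio of 0.973, and of 6 tested eosinophil and basophil markers 1 was higher and 1 lower. In such bulk samples, fewer cells of a type and less RNA per cell cannot be told apart, and the part of these differences in the results that follow was not tested.

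Of the 57 members, 32 were tested, those whose FPKM averaged 1 or more across the libraries. Between LIP and Ctrl, 16 of them rose and 2 fell at the threshold of 0.05 on the adjusted p (edgeR's quasi-likelihood test on the deposited read counts, with adjustment over all 10440 genes tested), and 14 passed in neither direction. The background is large: 53.6% of all genes tested passed, 26.5% higher and 27.2% lower, beside 50% and 6.25% of the tested members. At least 2-fold changes were called for 7 members upward and 2 downward, against 15% and 18.3% of all genes. The median log2 fold change of the tested members was 0.56, and that of all genes was -0.09. In 18 members the 3 LIP libraries did not overlap the 3 Ctrl libraries, 16 lying above and 2 below, and in all genes tested the groups did not overlap for 63.4%, with 30.3% above and 33.1% below. A member that passes the expression filter only because 1 group is high had to differ, which concerns *Stx3*, *Stxbp5* and *Sytl1*, each with a mean FPKM under 1 in 1 of the groups. Without these, 14 of 29 tested members were higher and 1 lower, *Snapc2*.

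**Figure D1:**
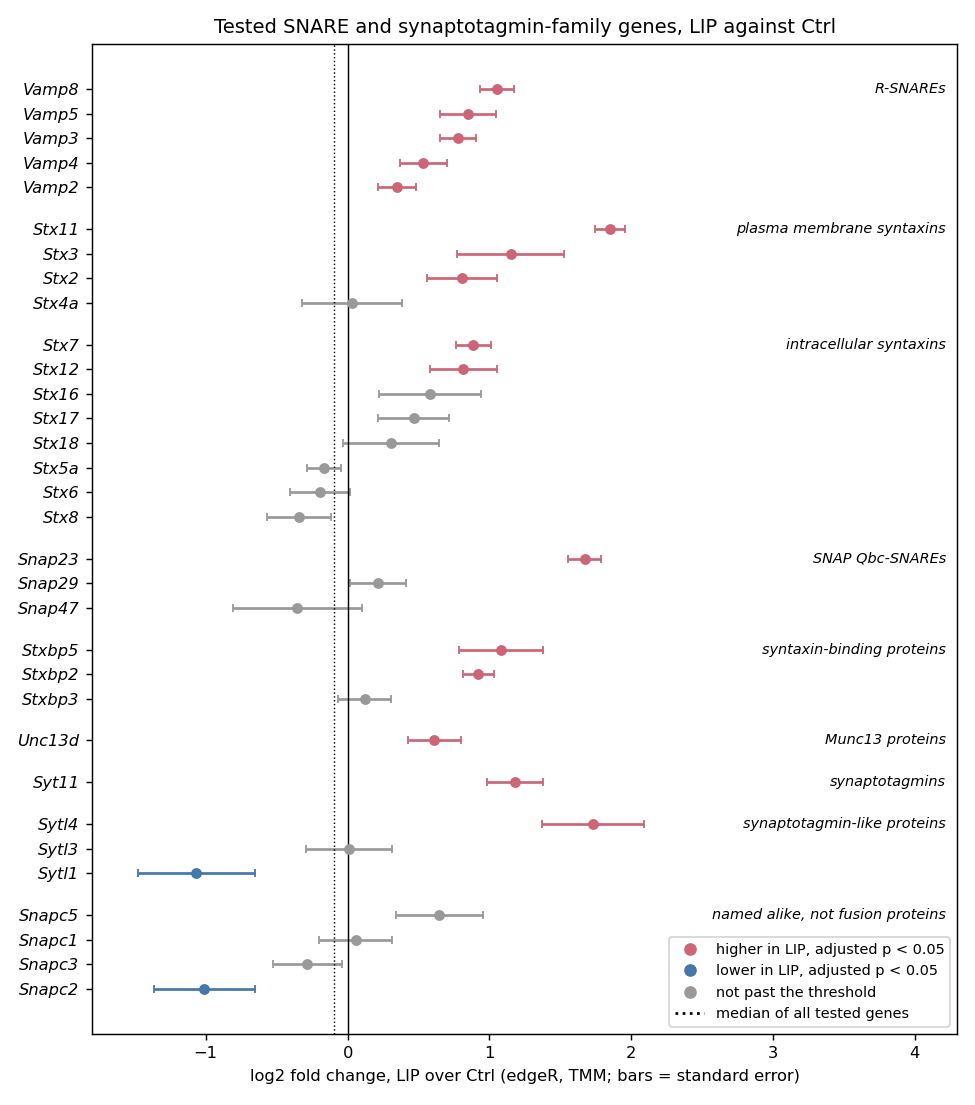
Log2 fold change of LIP over Ctrl (horizontal axis) for the 32 tested members, grouped by role, from edgeR with TMM normalization; points are estimates, bars are 1 standard error, and colour marks the direction of calls at an adjusted p under 0.05. *Stx11* (1.85), *Sytl4* (1.73) and *Snap23* (1.67) lie farthest to the right, and *Sytl1* (-1.07) and *Snapc2* (-1.01) are the called members on the left.

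These counts depend on how libraries of such different composition are put on 1 scale. TMM normalization, the main choice, gave factors of 1.10 to 1.14 in Ctrl and 0.887 to 0.902 in LIP. With plain library totals the median of all genes moved from -0.09 to -0.42, the genes called went from 2766 higher and 2835 lower to 1898 and 4179, and the members from 16 and 2 to 10 and 4. Scaled on the neutrophil markers themselves, the median of all genes was -1.91, 63 genes were higher and 9233 lower, and 0 members were higher and 28 lower (edgeR), *Stx11* alone having a positive value (0.04, adjusted p = 0.752). The members' median lay above that of all genes by 0.65 with TMM, 0.65 with library totals and 0.64 with neutrophil scaling. A change of scaling moves the log2 fold changes of all genes by nearly the same amount. This gap was thus bound to stay nearly equal, and its stability is no check on the result. The sign of a gene's value, by contrast, can turn with the scaling. Each direction given below is therefore on the TMM scale, and relative to the neutrophil markers every tested member but *Stx11* lies below 0, *Sytl4* (-0.076) and *Snap23* (-0.14) being the nearest to it.

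**Figure D2:**
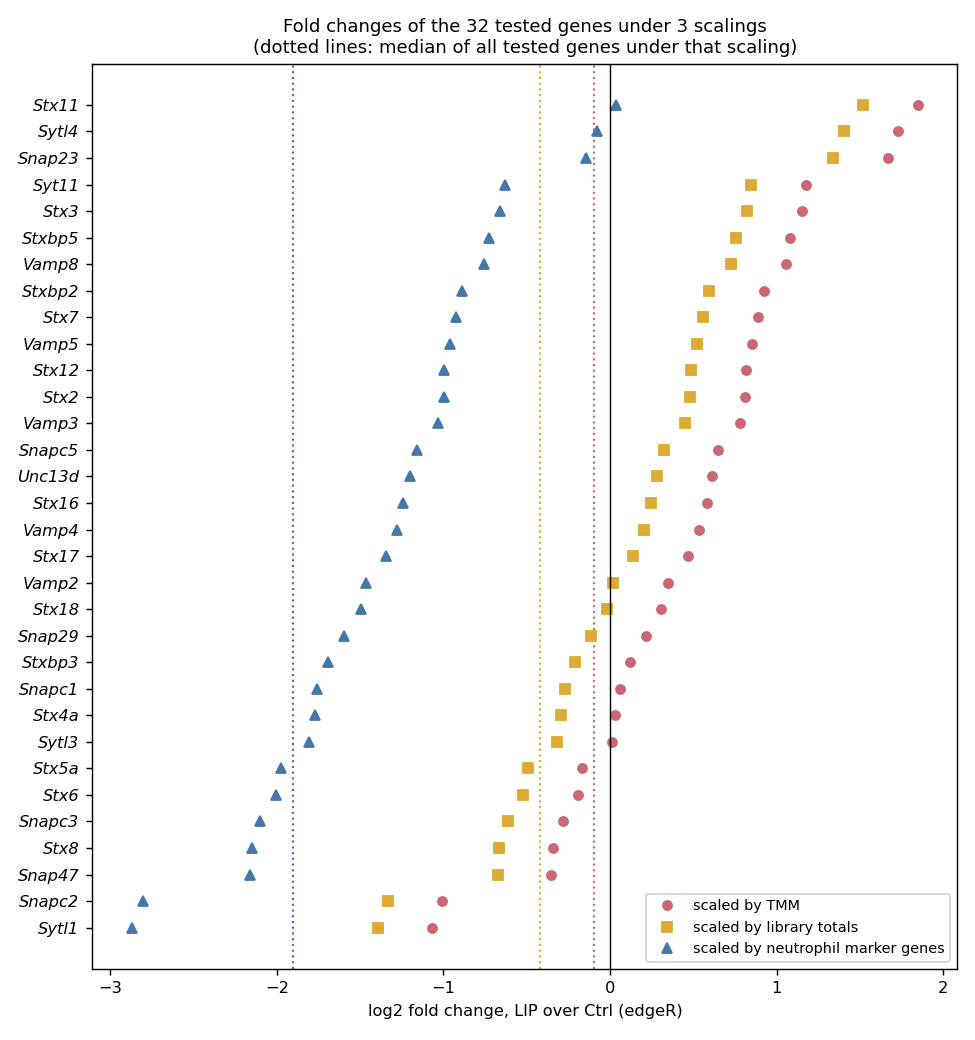
Log2 fold change of LIP over Ctrl of the 32 tested members under the 3 scalings, with the median of all 10440 genes shown for each. The whole set of members moves down with the median of all genes, from a members' median of 0.56 with TMM to 0.23 with library totals and -1.26 with scaling on the neutrophil markers.

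Of the 16 higher calls, 10 held both with library totals and with each library left out in turn: *Snap23*, *Stx11*, *Stx7*, *Vamp8*, *Vamp3*, *Vamp5*, *Sytl4*, *Syt11*, *Stxbp2* and *Stxbp5*, or 9 without *Stxbp5*, which passed the expression filter through LIP alone. In the results by role, values per library are CPM (TMM-scaled counts relative to library size), which compare libraries within a gene, and levels are compared between genes in FPKM, the authors' values, which are fragments set on gene length and library total.

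Among the SNAP proteins, *Snap23*, the broadly expressed relative of neuronal *Snap25*, rose 3.18-fold and was the most abundant member of all. In CPM it stood at 324, 261 and 330 in the Ctrl libraries and at 983, 1046 and 883 in the LIP libraries. The groups were far apart, with the lowest LIP library well above the highest Ctrl library. Its log2 fold change was 1.67 (SE 0.115, adjusted p = 1.35e-06, edgeR), and its mean level went from 72.4 to 186 FPKM, which ranked it 363rd of the genes tested. *Snap23* lies on chromosome 2 from 120567671 to 120601255 (ENSMUSG00000027287, GRCm38). The other tested SNAP proteins passed in neither direction: *Snap29*, which acts in autophagosome fusion, had a log2 fold change of 0.21 (SE 0.196, adjusted p = 0.372, edgeR) and overlaps the expressed gene *Pi4ka*, and *Snap47* had -0.35 (SE 0.457, adjusted p = 0.532, edgeR). *Snap47* stood at 5.46, 6.12 and 3.95 CPM in Ctrl and 2.44, 2.76 and 6.97 in LIP, with its highest value in a LIP library. *Snap25* was detected in 1 library, with 4 reads.

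Among the syntaxins of the plasma membrane, *Stx11* rose 3.60-fold. It encodes a lipid-anchored syntaxin of blood cells. Its CPM was 174, 148 and 177 in Ctrl and 606, 565 and 627 in LIP, so the groups did not overlap. The log2 fold change was 1.85 (SE 0.106, adjusted p = 4.37e-07, edgeR), the largest among the members and the 295th largest of all genes tested. *Stx11* lies on chromosome 10 from 12938209 to 12964262 (ENSMUSG00000039232). *Stx3*, which serves granule and apical fusion in secretory cells, was low, at 6.87, 5.83 and 3.55 CPM in Ctrl and 7.49, 12.2 and 16.4 in LIP, and its log2 fold change of 1.15 (SE 0.375, adjusted p = 0.0248, edgeR) was no longer called without any 1 of 4 libraries, with adjusted p of 0.0512 without Ctrl 2, 0.0895 without Ctrl 3, 0.0562 without LIP 2 and 0.102 without LIP 3. *Stx2* rose by 0.81 (SE 0.247, adjusted p = 0.0182, edgeR), which became 0.0511 without Ctrl 1. *Stx4a*, the mouse gene for syntaxin 4, the classical partner of SNAP-23 at the plasma membrane, stood at 6.81, 5.51 and 8.69 CPM in Ctrl and 4.85, 9.78 and 6.84 in LIP. These values overlap, and its log2 fold change was 0.03 (SE 0.352, adjusted p = 0.944, edgeR), with a sign that turns under library totals.

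All 5 tested R-SNAREs of the Vamp family were called higher, beside 26.5% of all genes tested. R-SNAREs with other names, such as *Ykt6* and *Sec22b*, are given with the other SNAREs. *Vamp8*, an R-SNARE of late endosomes and of secretory granules in blood cells, went from 86.3, 107 and 99.9 CPM in Ctrl to 203, 218 and 188 in LIP. The 3 LIP libraries lie above the 3 Ctrl libraries, and the log2 fold change was 1.05 (SE 0.122, adjusted p = 4.50e-05, edgeR). *Vamp8* lies on chromosome 6 from 72385223 to 72390703 (ENSMUSG00000050732), and *Vamp5*, a related protein of muscle and other membranes, lies on the same chromosome from 72368794 to 72380422. *Vamp5* rose by 0.85 on the log2 scale (SE 0.200, adjusted p = 0.00477, edgeR). *Vamp3*, cellubrevin, the R-SNARE of recycling endosomes, had 74.7, 60.6 and 63.3 CPM in Ctrl and 114, 121 and 106 in LIP, with a log2 fold change of 0.78 (SE 0.127, adjusted p = 0.000498, edgeR). Those 3 calls held without any 1 library and with library totals.

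The other 2 R-SNARE calls were weak. *Vamp2*, synaptobrevin 2, which neutrophils carry on their secretory vesicles and granules, stood at 60.8, 53.7 and 62.9 CPM in Ctrl and 75.4, 66.8 and 83.6 in LIP, close to each other though without overlap. Its log2 fold change of 0.35 (SE 0.135, adjusted p = 0.0498, edgeR) lost its call without any 1 library other than LIP 2, with adjusted p between 0.0719 and 0.184, and fell to 0.02 with library totals. *Vamp4*, of the trans-Golgi network, had 0.53 (SE 0.165, adjusted p = 0.0193, edgeR), and adjusted p of 0.0784 without Ctrl 3 and 0.0809 without LIP 1. Untested *Vamp1* averaged 0.931 FPKM in Ctrl and 0.313 in LIP, with overlap between the groups, and it overlaps the expressed genes *Cd27* and *Tapbpl* on the other strand.

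**Figure D3:**
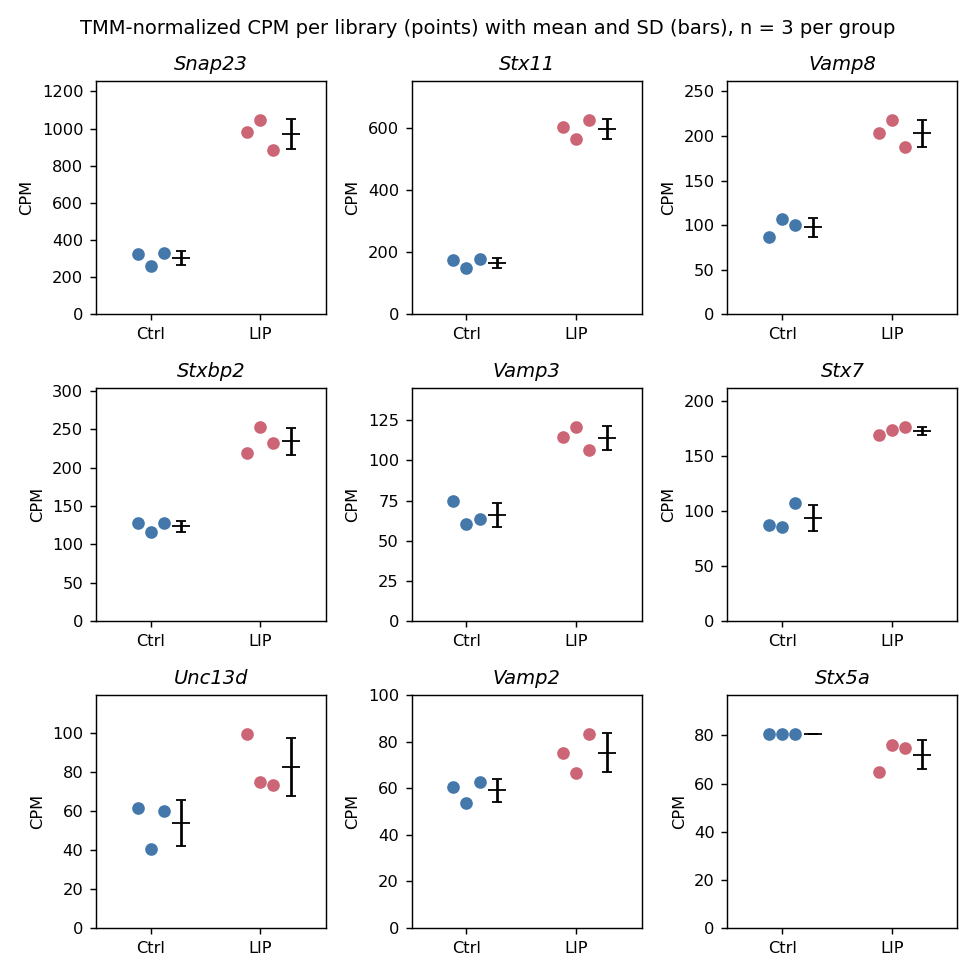
TMM-normalized CPM of 9 members in each library (points), with the mean and SD of 3 libraries per group (bars); each vertical axis starts at 0. The LIP libraries lie above the Ctrl libraries for *Snap23*, *Stx11*, *Vamp8*, *Stxbp2*, *Vamp3*, *Stx7*, *Unc13d* and *Vamp2*, by a wide margin for *Snap23* and *Stx11* and a narrow one for *Vamp2*, and below them for *Stx5a*, which was not called.

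Because *Snap23*, *Stx11* and *Vamp8* were the 3 most abundant members and all rose, the sequence just before each gene is shown, from RefSeq on GRCm38.p6 and read 5′ to 3′ on the gene's strand, ending at the base before the gene span in the deposited table. Of the 57 members, 45 matched a promoter in the RefSeq table. Capitals mark the motifs described after the sequences. The stretches lie at chr2:120567421-120567670 on the + strand for *Snap23*, chr10:12964263-12964509 on the - strand for *Stx11* and chr6:72390704-72390917 on the - strand for *Vamp8*.
Snap23: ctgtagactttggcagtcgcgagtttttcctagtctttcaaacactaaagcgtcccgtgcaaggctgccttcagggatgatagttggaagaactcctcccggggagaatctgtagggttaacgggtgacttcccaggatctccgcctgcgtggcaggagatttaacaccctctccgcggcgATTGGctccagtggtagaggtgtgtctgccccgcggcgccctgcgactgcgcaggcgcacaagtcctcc
Stx11: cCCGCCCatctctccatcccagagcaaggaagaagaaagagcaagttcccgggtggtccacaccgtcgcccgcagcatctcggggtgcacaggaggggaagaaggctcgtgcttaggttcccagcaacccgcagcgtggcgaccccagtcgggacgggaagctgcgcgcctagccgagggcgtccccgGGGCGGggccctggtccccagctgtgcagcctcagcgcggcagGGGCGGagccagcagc
Vamp8: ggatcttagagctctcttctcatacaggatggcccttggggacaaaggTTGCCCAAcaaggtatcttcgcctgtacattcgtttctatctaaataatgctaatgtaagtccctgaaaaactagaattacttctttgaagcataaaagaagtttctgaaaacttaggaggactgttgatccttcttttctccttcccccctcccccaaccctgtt

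The *Snap23* stretch is 250 bases long with 58.4% G and C, and its capitals are a CCAAT box read on the reverse strand, as ATTGG, 69 bases before the RefSeq gene start. The *Stx11* stretch of 247 bases has 70.0% G and C and holds 3 GC boxes (GGGCGG on either strand). The *Vamp8* stretch of 214 bases has 42.5% G and C, neither of those boxes, and 1 match to a C/EBP-type motif (TTGCNNAA), 202 bases before the RefSeq start. Another match begins 38 bases before that start, at the end of the stretch, runs into the gene span and is not marked. In the 250 bases before the start, on both strands, a GC box was found in 27 of the 45 members (60.0%) and in 32.7% of all 32851 promoters, a CCAAT box in 26.7% and 33.8%, the C/EBP-type motif in 11.1% and 9.56%, a TATA box (TATAAA) in 2.22% and 12.4%, and an ETS-type motif (AGGAAGT) in 2.22% and 7.69%. An ISRE-type motif, which interferon-response factors can read, was in 6.67% and 2.98%, and an NF-kB-type motif in 8.89% and 4.11%. A match describes letters only. Among the 13 members called higher that have a promoter in the table, 6 (46.2%) hold a GC box, beside 9 of 16 (56.2%) of the other tested members, and 0 of the 13 hold an ISRE-type or NF-kB-type match. The GC boxes of *Stx11* do not overlap each other, and no 2 different motifs overlap in the stretches shown.

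Of the 8 syntaxins of endosomes, Golgi and endoplasmic reticulum, 2 rose and 6 passed in neither direction. The 25% that rose lies near the 26.5% of all genes tested that were called higher. *Stx7*, the Qa-SNARE of late endosomes, went from 87.4, 85.6 and 107 CPM in Ctrl to 169, 173 and 176 in LIP, without overlap, with a log2 fold change of 0.89 (SE 0.121, adjusted p = 0.000147, edgeR). *Stx12*, of recycling endosomes, rose by 0.82 (SE 0.234, adjusted p = 0.0135, edgeR), which became 0.0556 without Ctrl 3. *Stx5a*, the Qa-SNARE between endoplasmic reticulum and Golgi, was lower in every LIP library, at 65.0, 76.0 and 74.9 CPM beside 80.7, 80.7 and 80.8, but its log2 fold change of -0.17 (SE 0.12, adjusted p = 0.263, edgeR) was not called. With library totals its log2 fold change was -0.49 and called lower (adjusted p = 0.00569, edgeR), and that of *Stx8* was -0.67 (adjusted p = 0.0257, edgeR). *Stx6*, a Golgi and endosomal Q-SNARE, had 24.8, 22.2 and 21.4 CPM in Ctrl and 16.2, 24.1 and 19.6 in LIP, and *Stx8*, a partner of syntaxin 7, had 16.1, 24.2 and 19.6 and then 17.8, 15.3 and 14.2. Their groups overlap. The log2 fold changes of *Stx6* and *Stx8* were -0.19 and -0.34, and those of *Stx16*, *Stx17* and *Stx18* were 0.58, 0.47 and 0.31, with adjusted p from 0.139 to 0.462 over these 5 genes (edgeR).

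Among the syntaxin-binding proteins, *Stxbp2* (Munc18-2), the partner of syntaxin 11 and syntaxin 3, rose. It stood at 128, 116 and 128 CPM in Ctrl and 219, 253 and 232 in LIP, so that every LIP library exceeded every Ctrl library. Its log2 fold change was 0.92 (SE 0.109, adjusted p = 5.16e-05, edgeR), and it lies on chromosome 8 from 3630955 to 3643644 (ENSMUSG00000004626). *Stxbp3* (Munc18-3), which binds syntaxin 4, stood at 44.6, 28.4 and 38.4 CPM in Ctrl and 40.4, 42.0 and 38.7 in LIP, within the Ctrl range, and its log2 fold change was 0.12 (SE 0.184, adjusted p = 0.602, edgeR). *Stxbp5* (tomosyn), which binds syntaxins in place of an R-SNARE, had 8.96, 18.1 and 11.3 CPM in Ctrl and 30.9, 19.7 and 30.7 in LIP, a log2 fold change of 1.08 (SE 0.296, adjusted p = 0.0108, edgeR), with Ctrl 2 and LIP 2 close together. On log2(FPKM + 1) it was not called, with an adjusted p of 0.116 (limma). *Stxbp4* averaged 0.255 FPKM in Ctrl and 0.0502 in LIP and was under the filter.

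*Unc13d* (Munc13-4), which primes granules and acts with Rab27a, was the only Munc13 gene above the filter. It had 61.6, 40.3 and 60.0 CPM in Ctrl and 99.7, 74.9 and 73.1 in LIP. The groups did not overlap, but 1 library in each stood apart from the others, Ctrl 2 low and LIP 1 high. The log2 fold change was 0.61 (SE 0.189, adjusted p = 0.0191, edgeR), and without LIP 1 it was 0.45 with an adjusted p of 0.0716. With library totals it was 0.28 with an adjusted p of 0.233.

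Of the 14 synaptotagmins only *Syt11* reached the filter. It encodes a family member that does not sense calcium and acts in vesicle and phagosome traffic. Its CPM went from 19.8, 16.9 and 22.2 in Ctrl to 38.4, 54.4 and 40.3 in LIP, without overlap, and its log2 fold change was 1.18 (SE 0.198, adjusted p = 0.000598, edgeR). *Syt7*, a calcium sensor of lysosome exocytosis, had at most 2 reads in a library, which is under the floor of 3 reads and gives no comparison. The synaptotagmins under the filter each had at most 196 reads in any library.

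Synaptotagmin-like proteins bind Rab27 on granules. *Sytl4* (granuphilin) rose 3.32-fold, from 7.93, 4.75 and 8.37 CPM in Ctrl to 12.9, 25.5 and 31.4 in LIP, with a log2 fold change of 1.73 (SE 0.356, adjusted p = 0.0022, edgeR). The lowest LIP library stood close to the Ctrl range and the other 2 far above it. *Sytl1* (Slp1), which tethers Rab27a-bearing granules in neutrophils and passed the expression filter through Ctrl alone, fell from 2.72, 5.59 and 3.71 CPM to 2.20, 1.59 and 1.95, with a log2 fold change of -1.07 (SE 0.412, adjusted p = 0.049, edgeR). Its call was lost without Ctrl 2 (0.210), Ctrl 3 (0.0956), LIP 1 (0.0509), LIP 2 (0.123) or LIP 3 (0.0860), values that are adjusted p from edgeR. *Sytl3* stood at 17.7, 19.8 and 12.8 CPM in Ctrl and 23.0, 17.0 and 10.6 in LIP, with a log2 fold change of 0.01 (SE 0.303, adjusted p = 0.979, edgeR), and it overlaps the expressed gene *Ezr* on the other strand, so reads of the 2 genes cannot be told apart where the counting did not use strand.

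The *Snapc* genes, which do not act in fusion, gave 1 call. *Snapc2* fell from 7.68, 14.6 and 17.5 CPM to 4.73, 7.86 and 7.20, with overlap between the groups and a log2 fold change of -1.01 (SE 0.358, adjusted p = 0.0354, edgeR), a call lost without Ctrl 2 (0.104), Ctrl 3 (0.154), LIP 1 (0.0807) or LIP 3 (0.0583). *Snapc5*, the most abundant of them, had 11.1, 24.3 and 14.8 CPM in Ctrl and 25.5, 33.3 and 19.8 in LIP, and *Snapc1* and *Snapc3* had log2 fold changes of 0.06 and -0.28, none of them called. *Snapc3* overlaps the expressed gene *Psip1* on the other strand. *Snapc5* (0.65, adjusted p = 0.0967, edgeR) gained a call without Ctrl 2, at 1.03 (adjusted p = 0.0164, edgeR). Without the *Snapc* genes, 16 of 28 tested members were higher and 1 lower, *Sytl1*, beside 26.5% and 27.2% of all genes tested.

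The makeup of each family can be described without any scaling, as each gene's share of the family's summed FPKM within a library. *Snap23* held 87.5, 86.3 and 88.2% of the SNAP family in Ctrl and 94.7, 96.4 and 94.7% in LIP, and *Snap29* went from 10.2% to 4.07% on average. *Stx11* held 80.6, 83.0 and 79.7% of the plasma membrane syntaxins in Ctrl and 91.9, 90.8 and 91.6% in LIP, while *Stx4a* went from 5.98% ± 0.803 to 1.94% ± 0.753 (SD, n = 3 each). *Vamp8* held 45.1% ± 4.62 of the Vamp R-SNAREs in Ctrl and 52.6% ± 1.43 in LIP, and *Vamp2* 16.5% ± 1.44 and 11.9% ± 1.91 (SD, n = 3 each). Among the syntaxin-binding proteins *Stxbp2* held 77.1% ± 1.89 and 84.2% ± 1.69, and *Stxbp3* 17.8% ± 2.79 and 11.3% ± 0.467. *Stx7* held 40.6% ± 4.63 and 53.3% ± 2.90 of the intracellular syntaxins, and *Stx5a* 27.1% ± 0.765 and 17.0% ± 0.245. In each of these the LIP libraries lay apart from the Ctrl libraries. An exact two-sided permutation test of 3 libraries against 3 cannot give a p under 0.1, and the shares were not tested further.

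**Figure D4:**
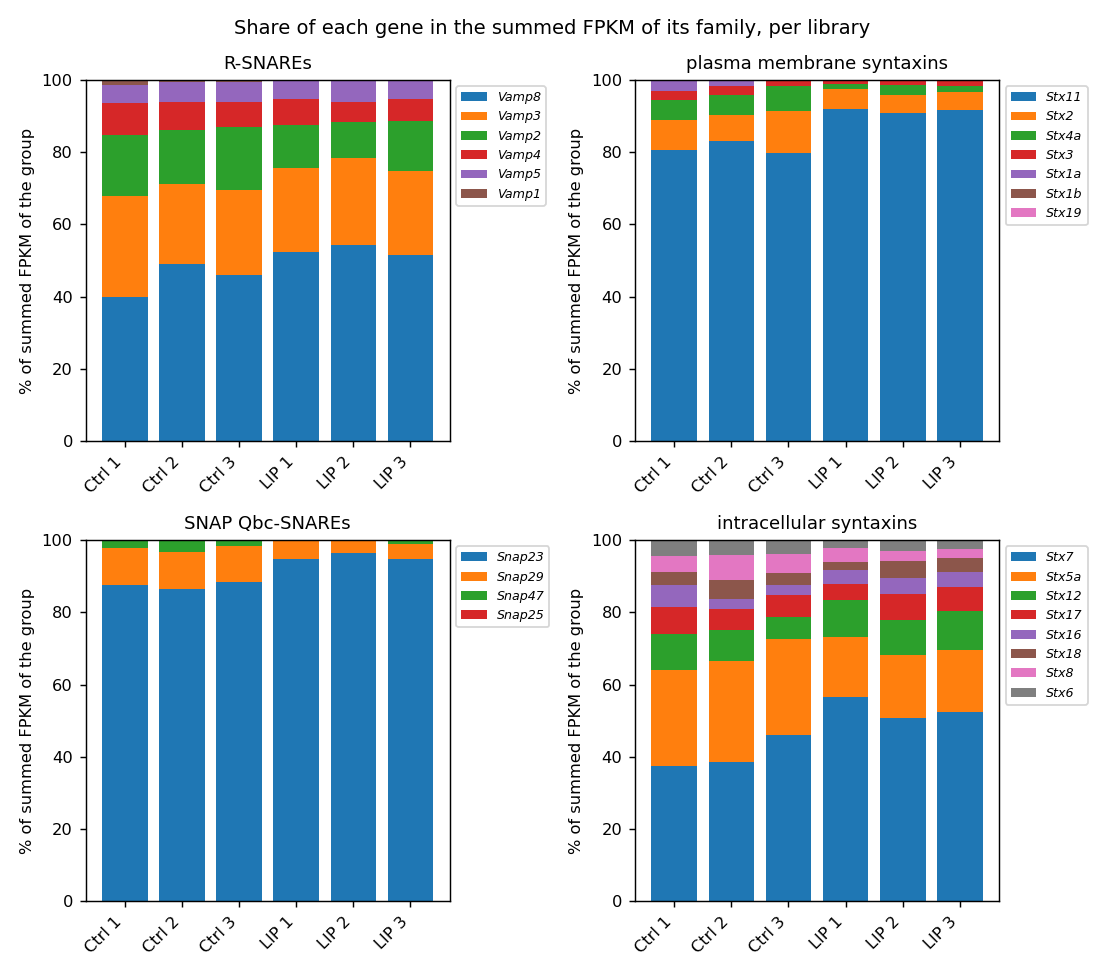
Share of each family's summed FPKM (percent, vertical axis) held by its members in each of the 6 libraries, for the families with several expressed genes. The leading gene of the SNAP family, *Snap23*, holds 86.3 to 88.2% in Ctrl and 94.7 to 96.4% in LIP, and *Stx11* holds 79.7 to 83.0% and 90.8 to 91.9% of the plasma membrane syntaxins.

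Over all 57 members the summed FPKM was 382, 347 and 383 in Ctrl and 625, 656 and 610 in LIP, a ratio of 1.70. *Snap23*, *Stx11*, *Vamp8* and *Stxbp2* together held 50.2% of it in Ctrl and 67.0% in LIP. By family the ratio of summed FPKM was highest for the plasma membrane syntaxins (2.58) and the SNAP proteins (2.36). It was 1.77 for synaptotagmins, 1.44 for the Vamp R-SNAREs, 1.40 for syntaxin-binding proteins and 1.23 for Munc13 proteins. Intracellular syntaxins had 1.14 and synaptotagmin-like proteins 1.12. These ratios are on the library total.

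The 25 members under the filter had mean FPKM between 0.0016 and 0.792, and 19 of them had no read in at least 1 library. Fitted without the filter, where the background was 15.9% of 29097 genes, *Snapc4* was the only one of them called, with a log2 fold change of -1.72 (SE 0.445, adjusted p = 0.0330, edgeR).

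Other genes of the fusion pathway are given by function, against the 26.5% of all genes called higher and the 27.2% called lower. Of 12 other SNAREs tested, 3 (25%) rose: *Ykt6* (0.60), *Sec22b* (0.56) and *Vti1b* (0.51 on the log2 scale, adjusted p = 0.0204, edgeR). Of the genes that take SNARE complexes apart, *Napa* and *Napg*, the alpha and gamma SNAP adaptors, rose by 0.65 and 0.47, and the ATPase gene *Nsf* had -0.17 (adjusted p = 0.331, edgeR). Of 5 other Sec1/Munc18 proteins 2 fell, *Vps45* of the endosome by 1.74 and *Scfd2* by 1.13 on the log2 scale. Both passed the expression filter through Ctrl alone, with mean FPKM of 0.636 and 0.568 in LIP, so they had to differ. In the exocyst, which tethers vesicles to the plasma membrane, *Exoc8* (1.33) and *Exoc6* (0.68) of 8 tested subunits (25%) rose. *Exoc8* passed the expression filter through LIP alone, with a mean FPKM of 0.752 in Ctrl. In the HOPS tether of late endosomes *Vps41* fell by 0.65 and the other 4 passed in neither direction. None of the 4 complexins listed was above the filter. Of the 21 secretory Rab GTPases and effectors listed, 5 were tested and 4 rose, *Rab27a* by 1.83 (SE 0.158, adjusted p = 5.63e-06, edgeR) and *Rab27b* by 1.75 (SE 0.170, adjusted p = 1.35e-05, edgeR), with *Rab3d* at 1.13 and *Rab37* at 0.84.

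Granules are also marked by their cargo. All 11 genes of secondary and tertiary granule cargo were higher in LIP, around a median of 1.40 on the log2 scale, and *Mmp8* (2.51) and *Lcn2* (2.06) changed most, and 4 of them, *Mmp8*, *Mmp9*, *Lcn2* and *Cd177*, are also on the neutrophil marker list. Of 6 genes of primary granule cargo, 3 were tested, and the log2 fold changes were 0.04 for *Ctsc* (SE 0.139, adjusted p = 0.840), -0.02 for *Prtn3* (SE 0.516, adjusted p = 0.974) and -1.33 for *Elane* (SE 0.961, adjusted p = 0.262, edgeR). *Elane* passed the expression filter through Ctrl alone, with a mean FPKM of 1.92 in Ctrl and 0.607 in LIP, so the filter favoured a lower value. The difference between the classes was not tested.

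**Figure D5:**
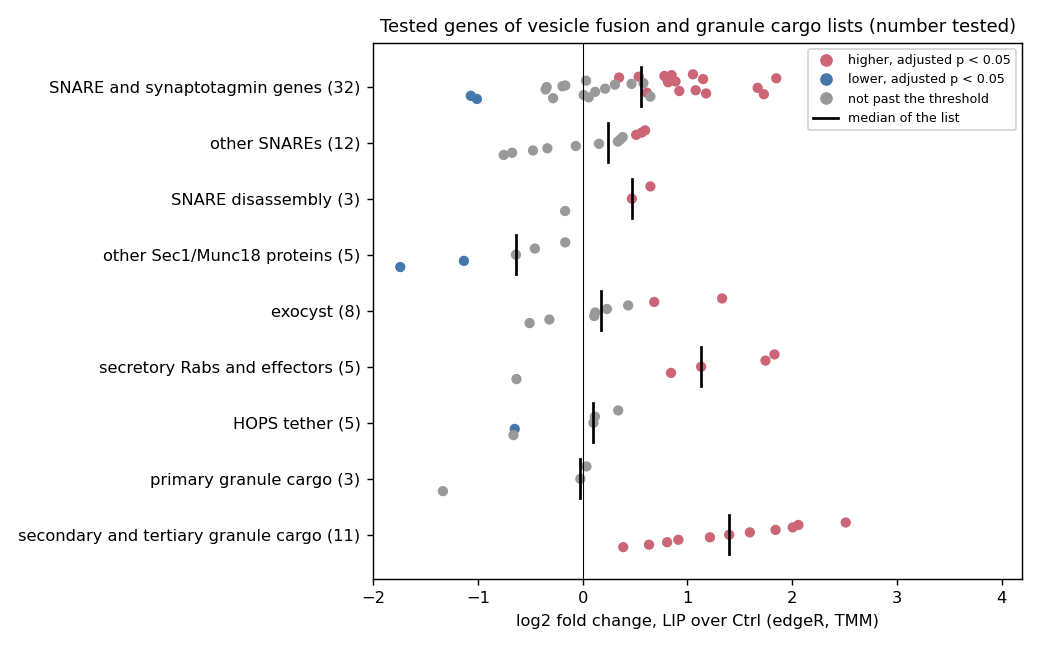
Log2 fold change of LIP over Ctrl for the tested genes of the lists related to vesicle fusion and granule cargo (horizontal axis), 1 row per list. All 11 genes of secondary and tertiary granule cargo are higher, with a median of 1.40, and the other Sec1/Munc18 proteins lie below 0, from -1.74 to -0.17.

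By the Gene Ontology terms in the deposited table, beside the 26.5% of all genes called higher, 22 members carry SNAP receptor activity, of which 17 were tested and 8 rose, and 25 carry exocytosis, of which 13 were tested, 6 rose and 1 fell. Of the 10 members annotated to the secretory granule, 7 were tested and 6 rose, *Stxbp3* being the exception. Those that rose include *Stx3* and *Stxbp5*, which passed the expression filter through LIP alone. They also include *Vamp2*, which was not called with library totals (adjusted p = 0.911, edgeR). *Stx3* also counts under SNAP receptor activity and exocytosis, and *Stxbp5* under exocytosis. *Sytl1*, which passed the filter through Ctrl alone, is the 1 that fell under exocytosis. Of all 55 tested genes of the secretory granule, 31 were higher and 10 lower. Of the 11 members of the phagocytic vesicle, 9 were tested and 5 rose, *Stx12*, *Stxbp2*, *Syt11*, *Vamp3* and *Vamp4*, and the 4 others were *Stx4a*, *Stx6*, *Stx8* and *Stxbp3*. Of all 67 tested genes of the phagocytic vesicle, 40 were higher and 6 lower. Over all genes with the terms, 10 of 25 were higher for SNAP receptor activity, and 19 of 49 were higher and 6 lower for exocytosis.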

How the data were processed

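PB neutrophils of 3 Ctrl and 3 LIP pools were profiled by Smart-seq2 (oligo-dT priming, PCR, no molecular identifiers) with paired-end sequencing. For every gene the authors deposited the raw count of reads and an FPKM value, which relates it to gene length and library total, with GRCm38 coordinates. The submitters' notes name cutadapt 1.9 and FastQC; the aligner, the counting tool and the use of strand are not given in the sources used here. Groups were taken from the sample labels. P-values measure the spread between pools.

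Genes averaging 1 FPKM or more entered the fit in edgeR 4.0.16 (R 4.3.3), TMM normalization and the quasi-likelihood test on all 6 libraries, without a replicate block. P-values were Benjamini-Hochberg adjusted over 10440 genes, with a threshold of 0.05. The standard error of a log2 fold change was taken as its size over the square root of F. The common biological coefficient of variation was 0.265. Depth was similar in all libraries, and 1 count was worth 0.0168 to 0.0214 CPM. Counting error weighs more the fewer reads a gene has, above all near the floor of 3 reads, and PCR copies make reads dependent. Within groups, all pairs of libraries differed by more than sampling noise. The fit was tested on simulated data with 200 changed genes of 10440. In that simulation it recovered 34% of the 2-fold and 99% of the 4-fold changes, and 3.62% of its calls were false. In the data 53.6% of the genes were called, far more than were changed in the simulation. These rates depend on the share of changed genes and need not hold for the data. A member that passed in neither direction is in any case not shown to be unchanged.

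The members, role groups, pathway lists and cell type markers were chosen with earlier results of these data known. Named with values per library were a core list of granule SNAREs and their regulators, the tested member with the highest and lowest log2 fold change and the most abundant in each role group, and every member called with an absolute log2 fold change of at least 1.5; *Stx5a* was added after its values were seen. Where a name stood on several rows (50 names), the lists used the more abundant row. A gene was kept as a member where any of its transcript types in the table was protein-coding, and the count for rows of that type alone is given with the alternatives, an alternative chosen after seeing the data. Alternatives were other normalizations, filters, DESeq2 1.42.0, limma 3.58.1 on log2(FPKM + 1) and log2(FPKM + 0.1), a replicate block, and leaving out each library. Promoters were the 250 bases before the RefSeq start. All value columns were mapped to samples. Some results for single genes are left out of the text.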

Additional observations from a re-analysis of the deposited data

How the results depend on the processing

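In the main fit 16 members were higher and 2 lower around a median of 0.56, beside 26.5% and 27.2% of all genes tested. Library totals gave 10 higher and 4 lower (median 0.23), beside 18.2% and 40.0% of all genes. Scaling on neutrophil markers gave 0 higher and 28 lower (median -1.26), beside 0.603% and 88.4%. A filter at 5 FPKM gave 10 higher and 2 lower among 18 tested, beside 33.1% and 35.8%. In limma, 9 were higher and 3 lower with either pseudocount (median 0.22 with 1 and 0.27 with 0.1). The shares of all genes were 19.3% higher and 40.7% lower with 1, and 18.9% and 39.7% with 0.1. One member was lower with median-of-ratios factors, without a low-value filter, with filterByExpr, with DESeq2, with the replicate block and without the *Snapc* genes. The share of all genes called lower was 25.8% with median-of-ratios factors, 7.51% without the filter and 16.4% with filterByExpr. It was 27.0% with DESeq2 and also with the replicate block. The members called higher were 16 with median-of-ratios factors, 12 of 57 without the filter and 15 of 43 with filterByExpr. The shares of all genes called higher were then 27.7%, 8.35% and 16.8%. DESeq2 gave 17 higher and the replicate block 16, beside 28.6% and 26.1% of all genes. Without the *Snapc* genes 16 of 28 were higher. Rows typed protein-coding alone, chosen after seeing the data, gave 5 higher and 1 lower of 11 tested (median 0.65). Leaving out *Stx3*, *Stxbp5* and *Sytl1*, also chosen after seeing the data, gave 14 higher and 1 lower of 29 tested. With each library left out in turn, 12 to 15 members were higher and 0 to 2 lower, with medians from 0.45 to 0.62. Of all genes, 23.2% to 25.0% were then higher and 21.6% to 26.5% lower. The fewest higher calls came without Ctrl 3, and the lower calls were lost without Ctrl 2, Ctrl 3, LIP 1 or LIP 3.

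Scaled on the neutrophil markers, the sign turned for 24 of the 32 tested members, among those named with values per library *Stx7* (-0.92), *Unc13d* (-1.20), *Snapc5* (-1.16), *Stx4a* (-1.77), *Stx3* (-0.66), *Vamp8* (-0.76), *Vamp3* (-1.03), *Vamp2* (-1.46), *Snap23* (-0.14), *Sytl3* (-1.81), *Sytl4* (-0.076), *Syt11* (-0.63), *Stxbp2* (-0.89), *Stxbp3* (-1.70) and *Stxbp5* (-0.73), since this scaling lowers every gene by the rise of the markers. In other alternatives 6 uncalled members turned: *Stx18*, *Snapc1*, *Snap29*, *Stx4a*, *Sytl3* and *Stxbp3*. *Stx4a* was -0.30 with library totals, -0.22 and -0.30 in limma with pseudocounts 1 and 0.1, -0.0058 with the replicate block, -0.10 without Ctrl 2 and -0.26 without LIP 2. *Sytl3* was -0.32 with library totals, -0.25 and -0.33 in limma, -0.037 with the replicate block, -0.15 without Ctrl 3 and -0.28 without LIP 1. *Stxbp3* was -0.21 with library totals, -0.060 where only genes averaging 5 FPKM were kept, -0.15 and -0.16 in limma and -0.022 without Ctrl 2. With each library left out, *Stx4a* ranged from -0.26 to 0.25, *Sytl3* from -0.28 to 0.26 and *Stxbp3* from -0.022 to 0.28. Of the values of the 21 named members under the alternatives, 263 kept direction and side of the threshold, 46 lost the call, 7 gained one and 32 turned.

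The labels give same-numbered libraries no link beyond the number. Their deviations correlated at 0.02, 0.06 and 0.04, and those of differently numbered libraries at -0.05 to 0.02. Ctrl 2 and Ctrl 3 were closest to the LIP library of their own number. Ctrl 1 was closest to LIP 3 by a narrow margin (0.0217, beside 0.0210 with LIP 1). With the number as replicate block, 16 members were higher and 1 lower, beside 26.1% and 27.0% of all genes. *Stx3* (adjusted p = 0.0585, edgeR) and *Sytl1* (adjusted p = 0.105, edgeR) lost their calls and *Snapc5* gained one (0.69, adjusted p = 0.0327, edgeR). Depth limits the members with few reads, for which a difference can go undetected.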
